A study of Mus musculus with 12 samples.

Results

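The respiratory chain subunit genes are the nuclear genes for the proteins of complexes I to IV of the mitochondrial inner membrane and of the ATP synthase, complex V. Members were taken by gene name: every non-control probe named Nduf, Sdh, Uqcr, Cox4 to Cox8 or Atp5 with a subunit suffix, and 1 probe per gene, the one with the highest mean over the 12 arrays. This gave 83 of the 31093 gene names on the array, of which 36 belong to complex I, 4 to complex II, 8 to complex III, 18 to complex IV and 17 to complex V. A gene counted as measured where some group had its probe well above background on each of its 3 arrays, as was the case for 80 of the 83 members and for 23763 genes in all. The 3 that did not pass were tissue isoforms of complex IV. Cox7b2 was above background on 0 arrays, Cox8b on 8, and Cox8c on 3 of the 12.

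RNA came from LSK cells, mouse blood-forming cells that lack lineage markers and carry Sca-1 and Kit, among which are the stem and early progenitor cells. All mice were male and of the DBA2/J strain, with no age in the labels, and each of the 4 groups had 3 arrays. The G-CSF group held LSK cells sorted from peripheral blood after 5 days of granulocyte colony-stimulating factor in 9 injections. The CWHM-823+tGro-b group held blood LSK cells mobilized by CWHM-823, an inhibitor of the integrin VLA-4, given with tGro-b, a truncated CXCR2 ligand, with no time in the labels. The AMD3100 group held blood LSK cells taken 1 hr after AMD3100, an antagonist of the chemokine receptor CXCR4. The PBS group held LSK cells of the bone marrow of mice injected with PBS. Treatment times differ, and blood from untreated mice was not analysed here, so in each comparison with marrow the treatment and the tissue cannot be told apart. Whether a group's arrays stand for different animals is not in the labels, and the p-values then cover only the spread between these samples, which may be technical.

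Complex I takes electrons from NADH and complex II from succinate, complex III passes them from ubiquinol to cytochrome c, and complex IV hands them to oxygen. Complexes I, III and IV pump protons while doing so, and complex V uses the returning protons to make ATP. Blood stem cells at rest are known for low respiration and a reliance on glycolysis, and their entry into cycling and differentiation goes with more mitochondrial respiration. The mitochondrially encoded subunits were not named on the array, so the genes described here are nuclear ones. Levels are log2 processed signals from which the 75th percentile of the same array was taken off, so a level of 0 is the 75th percentile of all probes, and probes are compared across arrays but not with each other.

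The 12 arrays had a signal of 1146 to 2724 at the 75th percentile, and 70.7 to 83.3% of their probes were well above background. Precision is limited by the small number of arrays. All 6 markers of LSK cells were above background on every array of the G-CSF, CWHM-823+tGro-b and marrow groups, and 5 of the 6 on each AMD3100 array. Marrow array 3 stood apart in the 10 neutrophil markers, whose summed signal was 32.2 times the array's 75th percentile, against 2.05 to 4.38 on the 11 other arrays. Each slide carried 1 array of every group under the same replicate number, and arrays of one number deviated together, so a fit with the number as a block and the differences within each slide are given beside the counts.

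Blood LSK cells of the G-CSF group had the highest mean level for 76 of the 80 measured members, and those of the AMD3100 group the lowest for 66. Over all genes tested, 27.8% were highest with G-CSF and 29.9% lowest with AMD3100. The order G-CSF, CWHM-823+tGro-b, marrow and AMD3100, high to low, was seen in 62 members, 77.5% of them, against 12.9% of all genes. The median level over the 80 members was 2.47, 1.86 and 2.10 on the G-CSF arrays, 2.21, 1.54 and 1.92 with CWHM-823+tGro-b, 1.55, 1.0 and 1.65 with AMD3100, and 1.5, 1.45 and 1.74 in marrow. All 3 G-CSF medians were thus above every AMD3100 and marrow median, while the CWHM-823+tGro-b medians overlapped those of the other groups. Array 2 had the lowest value of the 3 in every group. In the main fit, which holds no replicate block, only G-CSF against AMD3100 had more than 3 members past the threshold. The threshold was an adjusted p under 0.05 (limma, Benjamini-Hochberg over all genes tested). With the block, 33 members passed in G-CSF against marrow, 9 in AMD3100 against marrow and 23 in CWHM-823+tGro-b against AMD3100. The shares of all genes in these were 19.6%, 13.5% and 16.9%.

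**Figure D1:**
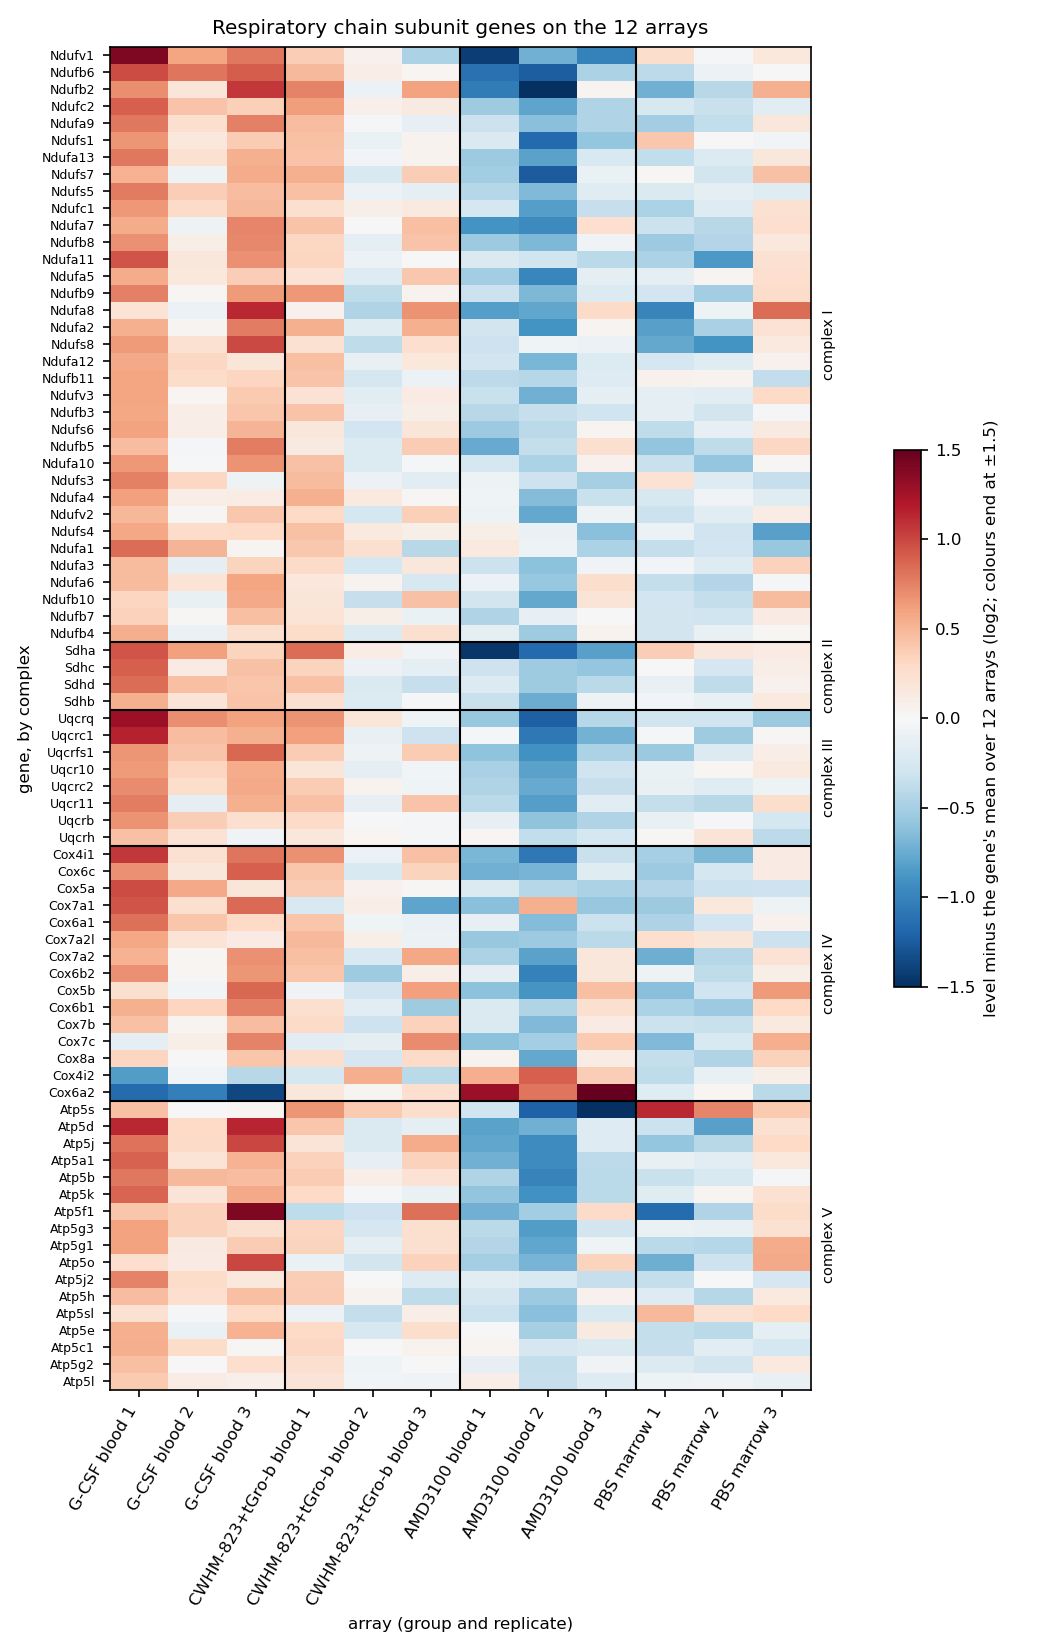
Level of 79 of the 80 measured members on the 12 arrays, as the log2 level minus the member's own mean over all arrays (colour), with genes in rows by complex and arrays in columns by group. Rows are mostly red on the G-CSF arrays and blue on the AMD3100 arrays, and Cox6a2 and Cox4i2 run the other way.

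By complex, the median level for complex II was 1.22, 0.68 and 0.70 on the G-CSF arrays, 0.90, 0.32 and 0.21 with CWHM-823+tGro-b, -0.11, -0.39 and -0.35 with AMD3100, and 0.49, 0.27 and 0.42 in marrow. The 3 AMD3100 arrays were the only ones below 0, and the 3 G-CSF arrays lay above the marrow arrays. For complex III the medians were 2.78, 2.13 and 2.41 on the G-CSF arrays, 2.37, 1.96 and 2.12 with CWHM-823+tGro-b, 1.75, 1.30 and 1.70 with AMD3100, and 1.78, 1.80 and 1.99 in marrow. Complex I had medians of 2.23, 1.74 and 2.07 on the G-CSF arrays, 1.99, 1.5 and 1.53 with CWHM-823+tGro-b, 1.38, 0.98 and 1.49 with AMD3100, and 1.37, 1.34 and 1.54 in marrow. In these 3 complexes the G-CSF arrays lay above both the AMD3100 and the marrow arrays without overlap. Complex IV had medians of 2.53, 1.86 and 2.46 on the G-CSF arrays, 2.27, 1.54 and 1.95 with CWHM-823+tGro-b, 1.42, 0.93 and 1.94 with AMD3100, and 1.13, 1.35 and 1.93 in marrow. Here the G-CSF arrays overlapped with the AMD3100 and the marrow arrays. Complex V had medians of 2.58, 2.21 and 2.00 on the G-CSF arrays, 2.24, 1.93 and 1.98 with CWHM-823+tGro-b, 1.97, 1.61 and 1.72 with AMD3100, and 1.58, 1.83 and 1.67 in marrow. All G-CSF arrays lay above the AMD3100 and marrow arrays in complex V, the lowest of them only just.

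**Figure D2:**
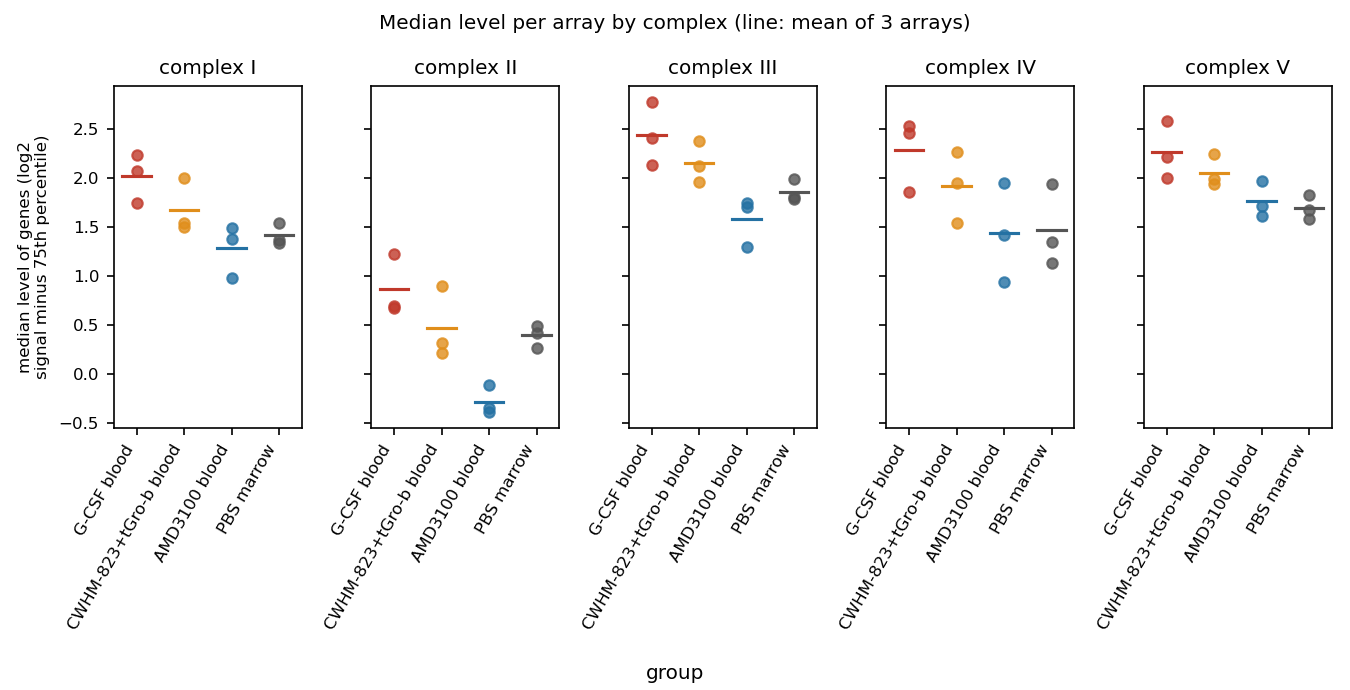
Median level of the members of each complex (y axis, log2 signal minus the array's 75th percentile) on each array, by group (x axis), with a line at the mean of the 3 arrays. In complexes I, II, III and V the 3 G-CSF points sit above the 3 AMD3100 points, and in complex IV the groups overlap.

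Nuclear respiratory chain genes of mammals are known to share a few promoter elements, bound by nuclear respiratory factor 1, by the ETS factor GABP, by YY1 and by the oestrogen-related receptors. RefSeq promoter windows of the GRCm38.p6 assembly, from 250 bases before to 50 after the start of the gene, were at hand for 69 of the 83 members and for 27025 genes. A gene counted as holding a motif where any of its windows did, and 6 members had more than 1 window. The YY1 letters AAGATGGC were found in 15.9% of the members with a window and 3.2% of all genes with one, counting both strands. The NRF1 letters GCGCATGCG were in 11.6% and 2.0%, the ETS letters CCGGAAG in 23.2% and 9.9%, and the oestrogen-related receptor letters TCAAGGTCA in 2.9% and 0.5%. The GC box letters GGGCGG were in 40.6% and 38.2%. The NRF1 letters nearly mirror themselves, so matches on the 2 strands overlap. Most members with the YY1 letters held them on the gene's own strand after its start, with the first letter at base 23 to 39. Of the 41 members that passed in any comparison, 30 had a window, 12 of these held at least 1 of the NRF1, ETS, YY1 and oestrogen-related receptor motifs, and 4 held at least 2. Among all 69 members with a window 31 held at least 1 and 6 at least 2. The stretches of those 4 promoters that span both motifs are shown because they belong to members that differed between G-CSF and AMD3100 and carry more than 1 such motif. Each is on the minus strand, reads 5′ to 3′, and has the matches on either strand in capitals.
Atp5j promoter, chr16:84835016-84835079, YY1 and ETS letters: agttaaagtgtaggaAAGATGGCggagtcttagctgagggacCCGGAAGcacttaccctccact
Atp5k promoter, chr5:108434366-108434464, NRF1 and reversed ETS letters: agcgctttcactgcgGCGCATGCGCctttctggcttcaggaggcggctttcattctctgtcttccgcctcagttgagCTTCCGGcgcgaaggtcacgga
Cox6a1 promoter, chr5:115348953-115349135, NRF1 and reversed ETS letters: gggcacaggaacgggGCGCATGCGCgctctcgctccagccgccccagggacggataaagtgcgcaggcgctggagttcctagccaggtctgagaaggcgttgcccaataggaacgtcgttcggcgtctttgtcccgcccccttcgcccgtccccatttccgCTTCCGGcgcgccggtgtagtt
Sdhd promoter, chr9:50603800-50603910, reversed ETS and reversed oestrogen-related receptor letters: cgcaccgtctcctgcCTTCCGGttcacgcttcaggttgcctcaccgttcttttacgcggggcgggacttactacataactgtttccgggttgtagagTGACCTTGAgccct

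A match of letters is a description of the window, not a bound site. The factors' own genes were among the 14 measured regulators of mitochondrial biogenesis, of which 2, or 14.3%, rose in G-CSF against AMD3100, a share near the 12.6% of all genes. These were Esrra, an oestrogen-related receptor (log2 difference 2.41 ± 0.48, adjusted p = 0.0096; ± gives the standard error of the fit throughout), and Yy1 (1.27 ± 0.33, adjusted p = 0.0187). The others did not pass, among them Nrf1 (0.40), Gabpa (0.29), Gabpb1 (0.72) and Gabpb2 (0.61).

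The comparison of G-CSF with AMD3100 sets one mobilized blood population against another, so the tissue is the same on both sides. Agent and treatment time both differ between these groups, and their parts in the differences cannot be told apart. Whether the agents brought the same kinds of LSK cells from marrow into blood was not tested. Of the 80 measured members, 39 were higher in G-CSF blood by their chosen probe, 2 were lower and 39 did not pass. Among the higher ones are Ndufv3, whose probes disagree, and Atp5s, which was above background on no AMD3100 array. Over all genes tested, 12.6% were higher and 18.4% lower, 31.1% either way. The median log2 difference was 0.83 over the members, against -0.37 over all genes, and 78 of the 80 were above 0. Within the 3 slides the members' medians were 0.99, 0.81 and 0.65, and 77 members were above 0 on each slide. On all 3 G-CSF arrays 57 members were higher than on any AMD3100 array and 2 were lower, against 19.8% and 27.8% of all genes. With the replicate number as a block, 72 members were higher and 2 lower, against 23.1% and 39.6% of all genes, 62.7% either way.

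The count hung on single arrays. In place of 41 it was 7 when G-CSF array 1 was left out and 13 when G-CSF array 3 was. Leaving out AMD3100 array 2 gave 13, and leaving out AMD3100 array 1 gave 22. The counts over all genes fell too, to 676 higher and 789 lower without G-CSF array 1. Members that passed without each array in turn and under every other processing tried were Ndufb6, Ndufv1, Sdha, Uqcrfs1, Uqcrq, Cox6a2 and Atp5b.

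**Figure D3:**
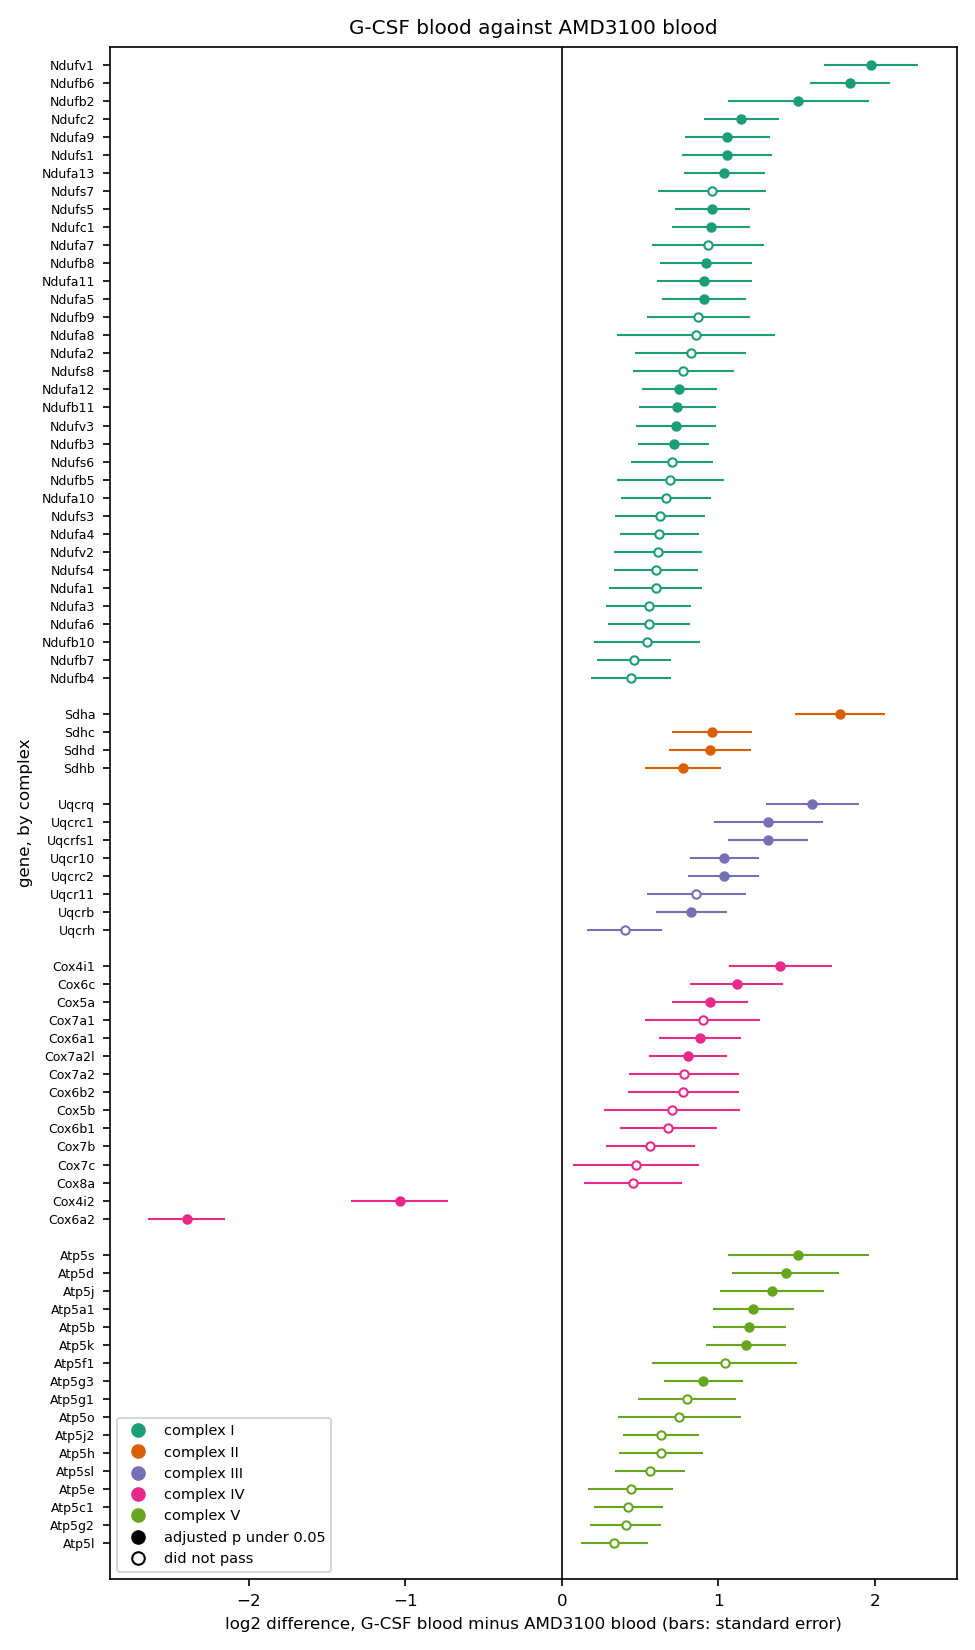
Log2 difference of 79 of the 80 measured members, G-CSF blood minus AMD3100 blood (x axis), with its standard error as a bar, by complex from top to bottom, and filled points for an adjusted p under 0.05. All points lie right of 0 but Cox4i2 and Cox6a2 of complex IV, and the 4 members of complex II are all filled.

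In complex I, 17 of the 36 members were higher in G-CSF than in AMD3100 blood by their chosen probe and none was lower, one of the 17 being Ndufv3, for which no direction is taken because its probes disagree. The members of complex I had a median log2 difference of 0.80, and all 36 were above 0. Among the subunits that carry the flavin and the iron-sulfur clusters, Ndufv1, which binds the flavin that takes electrons from NADH, was at 1.51, 0.70 and 0.90 on the G-CSF arrays, 0.48, 0.17 and -0.37 with CWHM-823+tGro-b, -1.30, -0.61 and -0.90 with AMD3100, and 0.38, 0.09 and 0.26 in marrow. It was 3.94-fold higher in G-CSF than in AMD3100 blood (1.98 ± 0.30, adjusted p = 0.00477). All AMD3100 values lay below the other 9, and the G-CSF values lay above the other 9. Ndufs1, the largest iron-sulfur subunit, was at 1.48, 0.97 and 1.20 on the G-CSF arrays, 1.25, 0.72 and 0.87 with CWHM-823+tGro-b, 0.60, -0.35 and 0.24 with AMD3100, and 1.22, 0.81 and 0.78 in marrow. AMD3100 was again the low group, while G-CSF and marrow overlapped (1.06 ± 0.29, adjusted p = 0.0227, G-CSF against AMD3100). Ndufs8, another iron-sulfur subunit, was at -0.31, -0.72 and 0.04 on the G-CSF arrays, -0.72, -1.33 and -0.70 with CWHM-823+tGro-b, -1.26, -1.02 and -1.04 with AMD3100, and -1.72, -1.84 and -0.81 in marrow. It did not pass against AMD3100 (0.78 ± 0.32, adjusted p = 0.0776) and had one of the smaller p-values of blood against marrow, described with that comparison.

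The accessory subunits of complex I do no electron transfer and serve assembly and stability. Ndufb6, of the membrane arm, was at 0.52, 0.34 and 0.44 on the G-CSF arrays, 0.02, -0.36 and -0.43 with CWHM-823+tGro-b, -1.59, -1.70 and -0.93 with AMD3100, and -0.86, -0.55 and -0.46 in marrow. It was 3.58-fold higher in G-CSF than in AMD3100 blood (1.84 ± 0.26, adjusted p = 0.0039), and the 3 AMD3100 values were the lowest of the 12. Ndufb2 was at 0.88, 0.36 and 1.24 on the G-CSF arrays, 0.93, 0.10 and 0.79 with CWHM-823+tGro-b, -0.87, -1.40 and 0.22 with AMD3100, and -0.54, -0.24 and 0.71 in marrow. The AMD3100 arrays ranged widely on this gene, and its difference had a large standard error (1.51 ± 0.45, adjusted p = 0.0299). Ndufc2 was at 3.12, 2.66 and 2.58 on the G-CSF arrays, 2.86, 2.30 and 2.36 with CWHM-823+tGro-b, 1.70, 1.44 and 1.78 with AMD3100, and 1.98, 1.89 and 2.07 in marrow. Its G-CSF values all exceeded its AMD3100 and marrow values (1.15 ± 0.24, adjusted p = 0.0108, G-CSF against AMD3100). Ndufa9, a subunit of the joint between the 2 arms, was at 2.34, 1.79 and 2.30 on the G-CSF arrays, 2.00, 1.53 and 1.42 with CWHM-823+tGro-b, 1.23, 0.92 and 1.1 with AMD3100, and 1.03, 1.18 and 1.72 in marrow. Ndufa13, also known as Grim19, was at 3.10, 2.54 and 2.85 on the G-CSF arrays, 2.74, 2.28 and 2.37 with CWHM-823+tGro-b, 1.78, 1.52 and 2.08 with AMD3100, and 1.94, 2.11 and 2.49 in marrow. Both were higher in G-CSF than in AMD3100 blood, 2.08-fold for Ndufa9 (1.06 ± 0.27, adjusted p = 0.0186) and 2.05-fold for Ndufa13 (1.04 ± 0.26, adjusted p = 0.0177).

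Smaller differences were seen in the other accessory members that passed. Ndufs5 was at 1.0, 0.59 and 0.68 on the G-CSF arrays, 0.66, 0.13 and 0.08 with CWHM-823+tGro-b, -0.21, -0.44 and 0.03 with AMD3100, and 0.00, 0.08 and 0.04 in marrow. Ndufc1 was at 2.92, 2.56 and 2.76 on the G-CSF arrays, 2.52, 2.36 and 2.43 with CWHM-823+tGro-b, 2.01, 1.45 and 1.93 with AMD3100, and 1.80, 2.08 and 2.5 in marrow. Their log2 differences were 0.96 ± 0.24 and 0.95 ± 0.25, and in neither did a G-CSF array overlap an AMD3100 array. Ndufb8 was at 3.20, 2.61 and 3.23 on the G-CSF arrays, 2.83, 2.38 and 2.94 with CWHM-823+tGro-b, 1.97, 1.85 and 2.46 with AMD3100, and 1.97, 2.07 and 2.68 in marrow. Ndufa5 was at 3.10, 2.71 and 2.92 on the G-CSF arrays, 2.76, 2.36 and 2.96 with CWHM-823+tGro-b, 2.03, 1.57 and 2.40 with AMD3100, and 2.40, 2.59 and 2.81 in marrow. Ndufa11 was at 0.68, -0.09 and 0.43 on the G-CSF arrays, 0.07, -0.35 and -0.27 with CWHM-823+tGro-b, -0.48, -0.57 and -0.67 with AMD3100, and -0.73, -1.12 and -0.03 in marrow. In these 3 the lowest G-CSF value was above every AMD3100 value and below the highest marrow value, and the differences were 0.92, 0.91 and 0.91 with limma adjusted p of 0.0365, 0.0296 and 0.0416. Ndufa12 was at 2.62, 2.36 and 2.23 on the G-CSF arrays, 2.5, 1.93 and 2.21 with CWHM-823+tGro-b, 1.75, 1.36 and 1.84 with AMD3100, and 1.78, 1.87 and 2.11 in marrow. Ndufb11 was at 2.83, 2.52 and 2.56 on the G-CSF arrays, 2.66, 2.00 and 2.16 with CWHM-823+tGro-b, 1.84, 1.81 and 2.05 with AMD3100, and 2.31, 2.29 and 1.87 in marrow. Ndufb3 was at 2.96, 2.48 and 2.80 on the G-CSF arrays, 2.82, 2.27 and 2.48 with CWHM-823+tGro-b, 1.97, 2.04 and 2.08 with AMD3100, and 2.24, 2.11 and 2.36 in marrow. These had differences of 0.75, 0.74 and 0.71, with limma adjusted p of 0.0374, 0.0413 and 0.0361, and their G-CSF and AMD3100 arrays did not overlap. Ndufs4 was at 0.79, 0.49 and 0.51 on the G-CSF arrays, 0.66, 0.36 and 0.30 with CWHM-823+tGro-b, 0.30, 0.11 and -0.41 with AMD3100, and 0.13, -0.08 and -0.60 in marrow and did not pass (0.60 ± 0.27, adjusted p = 0.0969). The 19 complex I members that did not pass had log2 differences of 0.44 to 0.96.

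Ndufv3 was the one member whose other probes went against the chosen one. The chosen probe was at 3.31, 2.75 and 3.12 on the G-CSF arrays, 2.94, 2.56 and 2.85 with CWHM-823+tGro-b, 2.40, 2.01 and 2.59 with AMD3100, and 2.60, 2.56 and 3.03 in marrow, a difference of 0.73 ± 0.26, adjusted p = 0.0486. A second Ndufv3 probe above background gave -0.23 (adjusted p = 0.528 with every probe tested) and another gave -1.09 (adjusted p = 0.069). Averaged over its probes, Ndufv3 gave -0.20, so no direction is taken for it. In all, 23 members had more than 1 probe above background, and in the other 22 no probe lay on the other side of 0 in this comparison.

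Complex II was the complex in which every member rose in G-CSF against AMD3100, 4 of 4, with a median difference of 0.95. Sdha, the flavin-bearing subunit that oxidises succinate, was at 1.07, 0.75 and 0.46 on the G-CSF arrays, 0.97, 0.24 and 0.07 with CWHM-823+tGro-b, -1.33, -1.04 and -0.69 with AMD3100, and 0.49, 0.30 and 0.25 in marrow. It was 3.43-fold higher in G-CSF than in AMD3100 blood (1.78 ± 0.29, adjusted p = 0.0054). The 3 AMD3100 arrays lay below all 9 others, and the 3 other groups overlapped. Sdhb, the iron-sulfur subunit, was at 3.79, 3.45 and 3.68 on the G-CSF arrays, 3.49, 3.04 and 3.22 with CWHM-823+tGro-b, 2.91, 2.5 and 3.17 with AMD3100, and 3.20, 3.13 and 3.40 in marrow. Its difference was the smallest of the 4 (0.77 ± 0.24, adjusted p = 0.0343), with no overlap between G-CSF and AMD3100. Sdhc, a membrane anchor that binds haem and ubiquinone, was at 1.38, 0.61 and 0.93 on the G-CSF arrays, 0.82, 0.39 and 0.35 with CWHM-823+tGro-b, 0.18, -0.05 and -0.10 with AMD3100, and 0.49, 0.24 and 0.59 in marrow. The other anchor, Sdhd, was at 0.64, 0.26 and 0.22 on the G-CSF arrays, 0.24, -0.41 and -0.54 with CWHM-823+tGro-b, -0.40, -0.73 and -0.60 with AMD3100, and -0.31, -0.58 and -0.13 in marrow. The anchors differed by 0.96 ± 0.26 (adjusted p = 0.0207) for Sdhc and 0.95 ± 0.26 (adjusted p = 0.0234) for Sdhd.

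In complex III, 6 of 8 members rose and none fell, with a median difference of 1.04, the highest of the 5 complexes. Uqcrfs1, the Rieske iron-sulfur protein that takes electrons from ubiquinol, was at 1.63, 1.40 and 1.83 on the G-CSF arrays, 1.34, 0.89 and 1.34 with CWHM-823+tGro-b, 0.36, 0.05 and 0.48 with AMD3100, and 0.41, 0.76 and 1.06 in marrow. G-CSF lay above marrow and AMD3100 on every array, and the G-CSF level was 2.49 times that of AMD3100 (1.32 ± 0.25, adjusted p = 0.00877). Uqcrq, a small subunit near the ubiquinone pocket, was at 2.05, 1.47 and 1.37 on the G-CSF arrays, 1.45, 0.95 and 0.70 with CWHM-823+tGro-b, 0.20, -0.45 and 0.34 with AMD3100, and 0.48, 0.47 and 0.21 in marrow. It was 3.03-fold higher in G-CSF than in AMD3100 blood (1.60 ± 0.30, adjusted p = 0.00814). Uqcrc1, one of the 2 large core proteins, was at 2.47, 1.77 and 1.84 on the G-CSF arrays, 1.93, 1.20 and 1.0 with CWHM-823+tGro-b, 1.29, 0.23 and 0.60 with AMD3100, and 1.28, 0.78 and 1.33 in marrow. AMD3100 array 1 reached the marrow level on this gene, and the standard error was larger (1.32 ± 0.35, adjusted p = 0.0202). Uqcrc2, the other core protein, was at 3.31, 2.87 and 3.18 on the G-CSF arrays, 2.99, 2.66 and 2.55 with CWHM-823+tGro-b, 2.15, 1.85 and 2.26 with AMD3100, and 2.49, 2.43 and 2.53 in marrow. Uqcr10 was at 3.33, 3.01 and 3.24 on the G-CSF arrays, 2.86, 2.54 and 2.64 with CWHM-823+tGro-b, 2.19, 1.88 and 2.39 with AMD3100, and 2.59, 2.72 and 2.83 in marrow. Uqcrb, which lies by the ubiquinone site, was at 2.39, 2.08 and 1.96 on the G-CSF arrays, 2.00, 1.72 and 1.70 with CWHM-823+tGro-b, 1.58, 1.1 and 1.26 with AMD3100, and 1.60, 1.70 and 1.44 in marrow. In these 3 the 3 G-CSF values exceeded all AMD3100 and marrow values, and the differences from AMD3100 were 1.03, 1.04 and 0.83 with limma adjusted p of 0.0121, 0.0111 and 0.0229. Uqcr11 (0.86 ± 0.31, adjusted p = 0.0548) and Uqcrh (0.40 ± 0.24, adjusted p = 0.187) did not pass.

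Complex IV was the one complex with members in both directions, 5 higher and 2 lower of 15 in G-CSF against AMD3100. Some of its subunits come in pairs of a general and a tissue-restricted isoform. Cox6a2, the isoform of heart and skeletal muscle, was at -1.02, -0.89 and -1.24 on the G-CSF arrays, 0.30, 0.17 and 0.38 with CWHM-823+tGro-b, 1.42, 0.93 and 1.68 with AMD3100, and -0.05, 0.16 and -0.27 in marrow. The 3 G-CSF values lay below all others and the 3 AMD3100 values above all others. It fell in G-CSF against AMD3100 to 0.19 times the AMD3100 level (-2.40 ± 0.25, adjusted p = 0.000758), with the smallest adjusted p of the 80 members. Its general partner Cox6a1 was at 3.69, 3.28 and 3.15 on the G-CSF arrays, 3.27, 2.79 and 2.76 with CWHM-823+tGro-b, 2.74, 2.20 and 2.53 with AMD3100, and 2.39, 2.57 and 2.92 in marrow and rose in G-CSF (0.88 ± 0.26, adjusted p = 0.0298). Cox4i2, the isoform known from lung and from low oxygen, was at -1.03, -0.24 and -0.61 on the G-CSF arrays, -0.46, 0.35 and -0.60 with CWHM-823+tGro-b, 0.36, 0.70 and 0.17 with AMD3100, and -0.57, -0.31 and -0.10 in marrow. It fell in G-CSF against AMD3100 (-1.04 ± 0.31, adjusted p = 0.0303), while Cox4i1, the general isoform, was at 2.69, 1.86 and 2.43 on the G-CSF arrays, 2.31, 1.54 and 2.06 with CWHM-823+tGro-b, 0.94, 0.56 and 1.29 with AMD3100, and 1.13, 0.95 and 1.75 in marrow and rose (1.40 ± 0.33, adjusted p = 0.0147). In these 2 pairs the general isoform rose and the tissue isoform fell. The other tissue isoforms measured lay above 0, as did their general partners Cox7a2 (0.78) and Cox6b1 (0.68). Cox7a1, another muscle isoform, gave 0.90 ± 0.37, adjusted p = 0.0754, and Cox6b2, the testis isoform, gave 0.78 ± 0.35, adjusted p = 0.101. Neither passed, and Cox7a1 was the only member below 0 on one slide and above it on the others, with 1.57, -0.29 and 1.42 on the 3 slides.

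**Figure D4:**
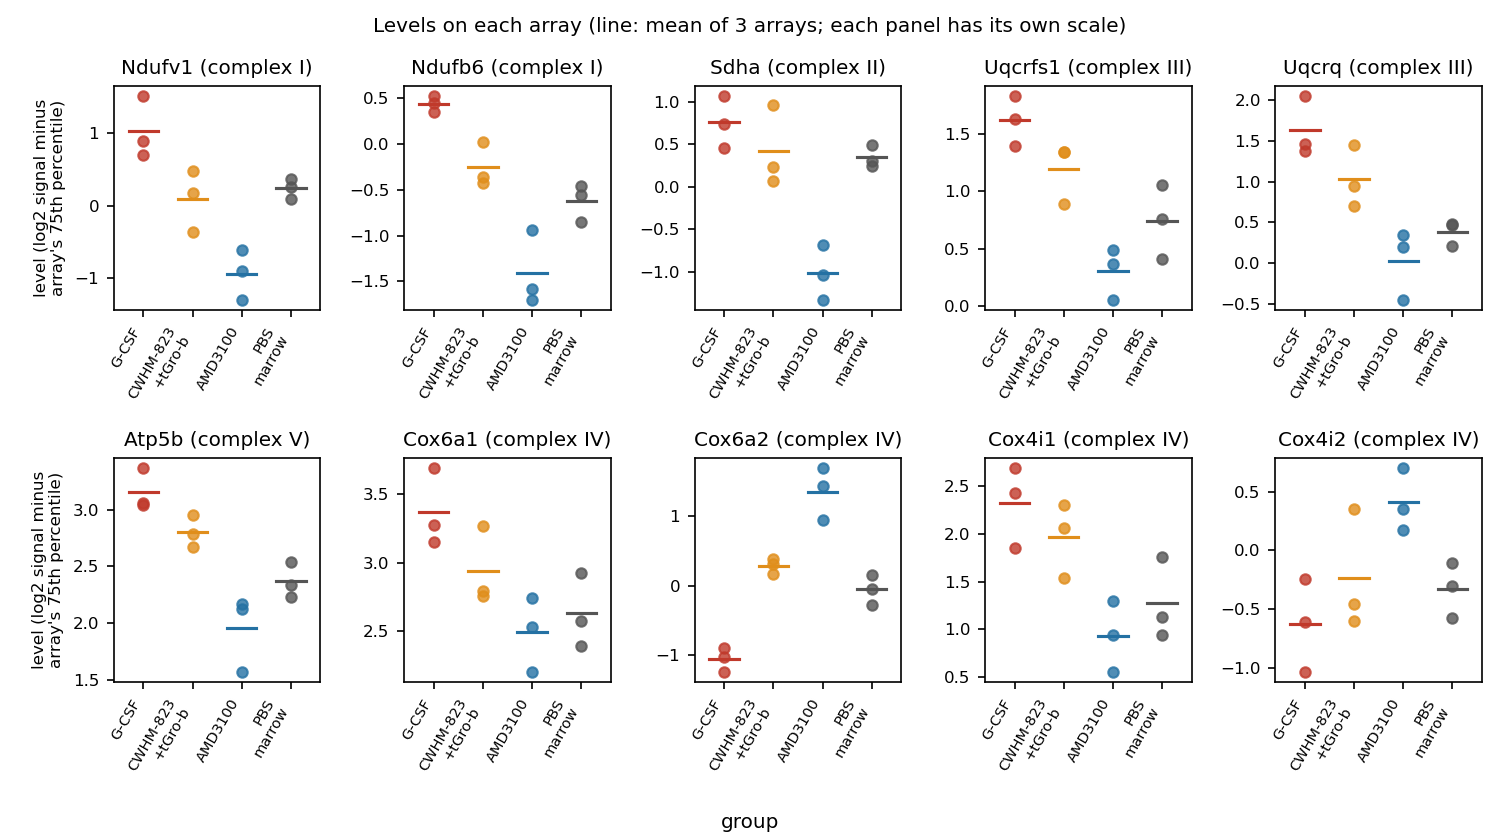
Levels of 10 members on each array by group (x axis), as log2 signal minus the array's 75th percentile (y axis, a scale of its own in each panel), with a line at the mean of 3 arrays. The 3 AMD3100 points are the lowest for Ndufv1, Ndufb6 and Sdha, and for Cox6a2 and Cox4i2 the G-CSF points lie below the AMD3100 points.

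Of the remaining members of complex IV, 3 passed. Cox6c was at 1.70, 1.19 and 1.92 on the G-CSF arrays, 1.44, 0.78 and 1.35 with CWHM-823+tGro-b, 0.30, 0.32 and 0.84 with AMD3100, and 0.47, 0.75 and 1.14 in marrow. Cox5a, a subunit on the matrix side, was at 3.80, 3.39 and 3.00 on the G-CSF arrays, 3.20, 2.89 and 2.83 with CWHM-823+tGro-b, 2.61, 2.39 and 2.34 with AMD3100, and 2.39, 2.5 and 2.51 in marrow. Cox7a2l, which joins complexes III and IV into supercomplexes, was at 4.25, 3.87 and 3.79 on the G-CSF arrays, 4.15, 3.76 and 3.58 with CWHM-823+tGro-b, 3.10, 3.13 and 3.27 with AMD3100, and 3.91, 3.85 and 3.35 in marrow. The G-CSF and AMD3100 arrays overlapped in none of the 3, and the differences were 1.12, 0.95 and 0.81 with limma adjusted p of 0.0206, 0.0187 and 0.0338. Cox8a (0.45), Cox7c (0.48), Cox7b (0.57), Cox6b1 (0.68), Cox5b (0.70) and Cox7a2 (0.78) did not pass. Ndufa4, listed here by name with complex I and since assigned to complex IV, gave 0.62 ± 0.25, adjusted p = 0.0735.

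In complex V, 7 of 17 members rose and none fell, and all 17 were above 0, with a median of 0.80. One of the 7 is Atp5s, which is no subunit of the enzyme and was above background on no AMD3100 array. Atp5b, the catalytic beta subunit, was at 3.36, 3.05 and 3.04 on the G-CSF arrays, 2.95, 2.67 and 2.78 with CWHM-823+tGro-b, 2.12, 1.57 and 2.17 with AMD3100, and 2.23, 2.34 and 2.54 in marrow. It was 2.29-fold higher in G-CSF than in AMD3100 blood (1.20 ± 0.24, adjusted p = 0.00917). Its partner in the ring, Atp5a1, was at 3.90, 3.22 and 3.54 on the G-CSF arrays, 3.36, 2.89 and 3.36 with CWHM-823+tGro-b, 2.29, 2.07 and 2.63 with AMD3100, and 2.90, 2.86 and 3.17 in marrow. Its difference was of similar size (1.22 ± 0.26, adjusted p = 0.0109), and in both genes the G-CSF arrays lay above all AMD3100 and marrow arrays. Atp5d, the delta subunit of the central stalk, was at 1.59, 0.75 and 1.60 on the G-CSF arrays, 0.87, 0.23 and 0.31 with CWHM-823+tGro-b, -0.35, -0.27 and 0.26 with AMD3100, and 0.13, -0.36 and 0.69 in marrow. It also rose (1.43 ± 0.34, adjusted p = 0.0156). Atp5g3, one of 3 genes for the proton-carrying c ring, was at 3.94, 3.67 and 3.58 on the G-CSF arrays, 3.65, 3.08 and 3.57 with CWHM-823+tGro-b, 2.92, 2.49 and 3.06 with AMD3100, and 3.24, 3.22 and 3.56 in marrow. It rose (0.90 ± 0.25, adjusted p = 0.0238), while its sister genes Atp5g1 (0.80 ± 0.31, adjusted p = 0.0665) and Atp5g2 (0.41 ± 0.23, adjusted p = 0.163) did not pass. Atp5j, of the outer stalk, was at 1.36, 0.83 and 1.55 on the G-CSF arrays, 0.75, 0.33 and 1.1 with CWHM-823+tGro-b, -0.24, -0.40 and 0.35 with AMD3100, and -0.03, 0.13 and 0.85 in marrow. Atp5k, of the membrane part, was at 1.94, 1.26 and 1.63 on the G-CSF arrays, 1.37, 1.06 and 0.97 with CWHM-823+tGro-b, 0.48, 0.16 and 0.66 with AMD3100, and 0.89, 1.11 and 1.30 in marrow. They differed by 1.34 ± 0.33 (adjusted p = 0.0167) for Atp5j and 1.18 ± 0.25 (adjusted p = 0.0115) for Atp5k.

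Atp5s and Atp5sl carry the Atp5 name but are no subunits of the enzyme, and RefSeq now calls them Dmac2l and Dmac2. Atp5s was a dim probe, at -3.05, -3.48 and -3.46 on the G-CSF arrays, -2.83, -3.09 and -3.23 with CWHM-823+tGro-b, -3.79, -4.71 and -6.03 with AMD3100, and -2.36, -2.76 and -3.09 in marrow. It was above background on all 9 arrays of the other groups and on none of the 3 AMD3100 arrays, so each difference from AMD3100 is a bound, set against the lowest signal above background on those arrays. Atp5s was at least 1.24-fold higher in G-CSF blood and at least 1.5-fold higher in CWHM-823+tGro-b blood than in AMD3100 blood. The limma adjusted p-values, 0.03 and 0.124, come from measured AMD3100 values that are not well above background. They do not test these bounds. Atp5sl was at 0.73, 0.48 and 0.79 on the G-CSF arrays, 0.41, 0.14 and 0.59 with CWHM-823+tGro-b, 0.17, -0.13 and 0.27 with AMD3100, and 0.98, 0.72 and 0.80 in marrow. It had higher values in marrow than in CWHM-823+tGro-b or AMD3100 blood, and G-CSF overlapped with marrow. Over the 12 arrays the members whose levels followed those of Atp5s most closely were Ndufs1 (Pearson r 0.73), Sdha (0.66) and Cox7a2l (0.65), a description over arrays that share slides and groups. The 3 AMD3100 values of Atp5s in it are not well above background.

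The members were bright on these arrays. Their mean level had a median of 1.79, against -0.88 over all genes, and 90% of them but 34.5% of all genes exceeded the 75th percentile. Differences between G-CSF and AMD3100 moved with brightness, so the members are set beside genes of like brightness. Among genes with a mean level over 2, 11% were higher, 12.1% were lower and the median was -0.01. Of the 35 members in that class 18 were higher, none was lower and the median was 0.77. Among genes with a mean level of 0 to 2, 20.8% were higher, 11.9% lower and the median was 0.23, while of 37 members 17 were higher, 1 lower and the median was 0.86.

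**Figure D5:**
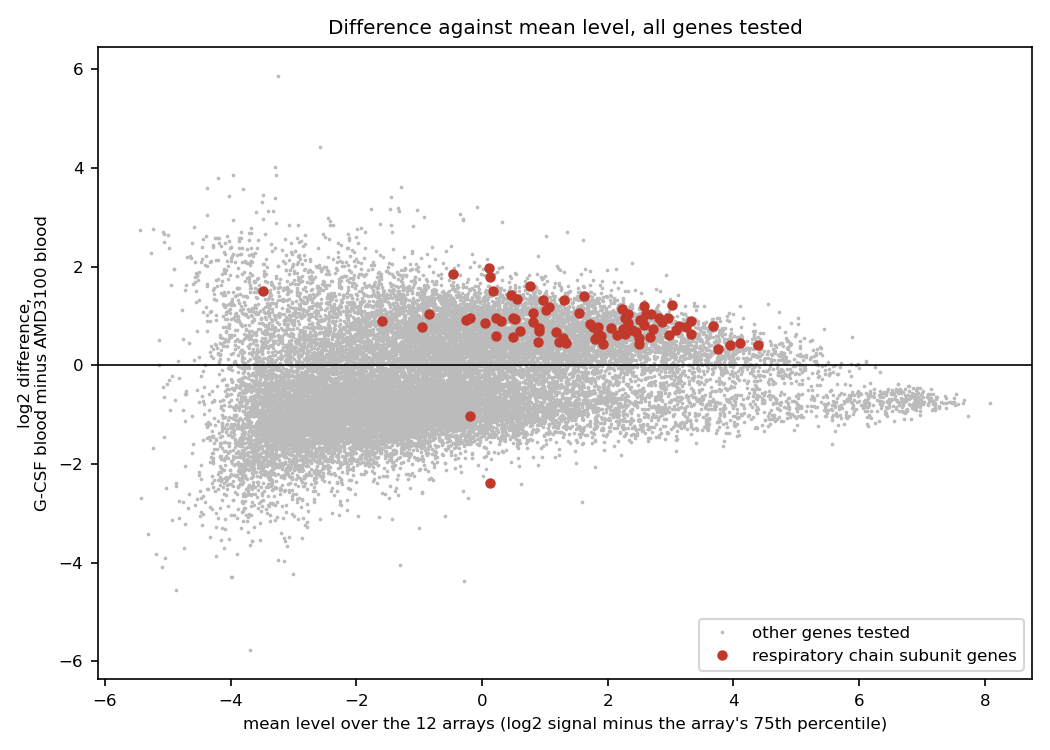
Log2 difference between G-CSF and AMD3100 blood (y axis) against the mean level over the 12 arrays (x axis, log2 signal minus the array's 75th percentile) for all genes tested in grey and the members in red. Members lie above 0 across the range of mean levels but for Cox6a2 and Cox4i2, and grey points lie on both sides of 0.

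Probe scaling moved the whole table in this comparison. The median over all genes was -0.37 with the 75th percentile, -0.10 with quantile normalization and -0.11 with cyclic loess, and the split over all genes, 3006 higher and 4379 lower, became 3324 and 2603 with quantile normalization, 3244 and 2744 with cyclic loess, and 3074 and 2545 in the authors' normalized table. The members' median was 0.76 with quantile normalization and 0.75 with cyclic loess, and the count higher was 34 with quantile normalization, 35 with cyclic loess and 33 in the authors' table. Cox6a2 and Cox4i2 were the 2 lower members under each.

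Markers of other cells moved with this comparison. The summed signal of 7 B cell markers was 4.46 to 4.86 times the array's 75th percentile on the G-CSF arrays, 6.82 to 9.06 with CWHM-823+tGro-b, 6.95 to 7.92 with AMD3100 and 4.35 to 4.85 in marrow, with 5 to 7 of the 7 above background on each array. Of 6 measured B cell markers 4 fell in G-CSF against AMD3100, with a median of -1.53. The 7 T cell markers summed to 3.06 to 6.45 on the G-CSF arrays, 4.08 to 7.46 with CWHM-823+tGro-b, 6.35 to 9.83 with AMD3100 and 4.16 to 6.71 in marrow, and 2 of 5 measured fell. Of the 6 LSK markers, 4 rose and 1 fell. Of 5 measured erythroid markers 1 rose and 1 fell, and no measured marker of neutrophils, monocytes, NK cells, platelets, mast cells or stroma passed. The part of these cells in the members' differences was not tested, and in bulk RNA fewer cells of a type and less RNA per cell cannot be told apart.

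Other genes of mitochondrial energy metabolism, from lists drawn up with earlier results of these data known, were counted in the same fit, against 12.6% higher and 18.4% lower over all genes. Of 17 enzymes of the citric acid cycle and its entry 11 rose in G-CSF against AMD3100 and none fell, with a median of 0.96, among them Sucla2, a subunit of succinyl-CoA ligase (1.20 ± 0.23, adjusted p = 0.00861), and Pdhb of pyruvate dehydrogenase (1.35 ± 0.28, adjusted p = 0.0102). Of 73 mitochondrial ribosomal protein genes 31 rose and 2 fell, with a median of 0.79, led by Mrpl57 (1.87 ± 0.28, adjusted p = 0.00477) and Mrpl45 (1.38 ± 0.24, adjusted p = 0.0067). Of 36 assembly factors 12 rose and 1 fell, with a median of 0.62. Nubpl, which delivers iron-sulfur clusters to complex I, rose by 1.77 ± 0.27 (adjusted p = 0.00478), and Sdhaf4, an assembly factor of complex II, by 1.95 ± 0.38 (adjusted p = 0.00907). Of 16 electron carriers and entry points 6 rose and none fell, with a median of 0.75. These included Cycs, which is cytochrome c (1.39 ± 0.27, adjusted p = 0.00917), and Sqrdl, which feeds electrons from sulfide to ubiquinone (2.29 ± 0.42, adjusted p = 0.00803). Of 9 genes of oxidative stress and uncoupling 2 rose, Sod2, the mitochondrial superoxide dismutase (1.02 ± 0.29, adjusted p = 0.0246), and Gpx1, a glutathione peroxidase (0.86 ± 0.28, adjusted p = 0.0375).

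Against marrow, blood cells of the G-CSF group had no member past the threshold, whereas 1.18% of all genes were higher and 0.551% lower, 1.73% either way. At an unadjusted p under 0.05 there were 38 members, 47.5% of them, against 19.6% of all genes. The median difference was 0.57, against -0.25 over all genes, 76 of 80 were above 0, and within the 3 slides the medians were 0.93, 0.43 and 0.41. On 41 members all G-CSF arrays were higher than all marrow arrays and on 1 all were lower, against 11.7% and 13.7% of all genes. With the replicate number as a block 32 members were higher and 1 lower, against 8.25% and 11.3% of all genes, 19.6% either way. The smallest p-values were those of Uqcrq (1.24 ± 0.30, adjusted p = 0.0615, 0.014 with the block), Ndufb6 (1.06 ± 0.26, adjusted p = 0.0637, 0.0204 with the block) and Cox6a2 (-0.99 ± 0.25, adjusted p = 0.067, 0.0237 with the block). Cox6a2 was also the one member on which the G-CSF arrays were all below the marrow arrays. Of the other lists, Cycs (1.21 ± 0.27, adjusted p = 0.0489) and the mitochondrial ribosomal gene Mrps28 (1.18 ± 0.26, adjusted p = 0.0466) rose. Markers that rose were 2 of 3 of mast cells and basophils, Hdc (2.76) and Cpa3 (1.82), 2 of 6 of LSK cells, Cd48 (1.61) and Ly6a (1.65), 1 of 6 of monocytes, Cd14 (1.71), and the erythroid Hba-a1 (3.65). Of 5 measured erythroid markers 2 fell, one being Car1 (-2.79), and of 4 of platelets 1 fell, Pf4 (-2.31). The part of these cells in the differences was not tested.

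AMD3100 blood against marrow had 3 members past the threshold, 1 higher and 2 lower, where 0.513% of all genes were higher and 0.909% lower, 1.42% either way. Cox6a2 was 2.64-fold higher in AMD3100 blood (1.40 ± 0.25, adjusted p = 0.0197), with 1.47, 0.78 and 1.96 within the slides. Sdha was lower (-1.37 ± 0.29, adjusted p = 0.0419), with -1.82, -1.34 and -0.94 within the slides. Atp5s was at least 1.87-fold lower. Its adjusted p of 0.0454 in the limma fit comes from measured AMD3100 values not well above background and does not test that bound. The call was kept in 8 of 22 alternatives, 1 of them among the 12 with an array left out. It was lost under normexp with quantile normalization, with no filter on dim probes and with an intensity trend and robust prior. Sdha lost its call with no filter on dim probes and kept it with 3 of the 12 arrays left out in turn, and Cox6a2 kept its call with 7. The count was 0 without marrow array 1, 2 or 3, 2 without CWHM-823+tGro-b array 1 or 3, and 1 without any other array. Over the members the median was -0.23, against 0.11 over all genes, and within the slides -0.05, -0.41 and -0.24. With single arrays left out it ran from -0.36 without AMD3100 array 3 to -0.09 without marrow array 3. Above 0 were 13 members with all arrays, 12 without AMD3100 array 3 and 29 without marrow array 3. On 2 members all AMD3100 arrays were higher than all marrow arrays and on 17 all were lower, against 14.6% and 11.9% of all genes. With the block 1 member was higher and 8 were lower, against 5.83% and 7.7% of all genes, the lower ones being Sdha, Atp5s, Ndufv1, Atp5sl, Ndufb6, Ndufs1, Atp5a1 and Ndufs7. Ndufv1 was the member nearest to passing without the block (-1.18 ± 0.30, adjusted p = 0.0784). Of the other lists the assembly factor Nubpl fell (-1.39 ± 0.27, adjusted p = 0.0334). Of 3 measured mast cell and basophil markers 2 were higher in AMD3100 blood, Hdc (2.51 ± 0.42, adjusted p = 0.0167) and Cpa3 (1.71 ± 0.29, adjusted p = 0.0167). Of the 6 LSK markers, 5 were above background on each AMD3100 array, and Slamf1 was lower (-2.09 ± 0.32, limma adjusted p = 0.0118). Whether Slamf1 was the marker not above background there is not given here, so its difference may rest on dim values. The part of these markers in the differences was not tested here either.

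CWHM-823+tGro-b blood against marrow had no member past the threshold, with or without the block. Without it 0.341% of all genes were higher and 0.0295% lower, 0.37% either way, and with it 1.08% passed. Ndufs4 alone had an unadjusted p under 0.05 (0.62 ± 0.27, adjusted p = 0.81), 1.25% of the members against 5.65% of all genes. The members' median was 0.25, against -0.05 over all genes, and within the slides 0.62, 0.16 and 0.05. On 12 members all CWHM-823+tGro-b arrays were higher than all marrow arrays and on 1 all were lower, against 4.46% and 5.27% of all genes. The markers that passed were Hba-a1 (4.46), Hdc (3.96) and the B cell marker Vpreb1 (2.18), all higher in CWHM-823+tGro-b blood, and their part was not tested.

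When all 3 blood groups together were set against marrow, no member passed, with or without the block, and 0.766% of all genes passed without it. Unadjusted, 7 members had a p under 0.05, 8.75% of them against 8.67% of all genes, the smallest being Atp5s (-1.0 ± 0.37, adjusted p = 0.379), Ndufs8 (0.67 ± 0.26, adjusted p = 0.432) and Atp5sl (-0.45 ± 0.18, adjusted p = 0.465). The value of Atp5s includes the 3 AMD3100 arrays on which it was not well above background. The members' median was 0.20, against -0.04 over all genes.

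G-CSF against CWHM-823+tGro-b had 1 member past the threshold, where 0.619% of all genes passed. Cox6a2 was lower in G-CSF blood (-1.33 ± 0.25, adjusted p = 0.0314), with -1.33, -1.06 and -1.62 within the slides. It passed without marrow array 3, G-CSF array 2 or AMD3100 array 2 or 3, and the count was 0 without each of the 8 other arrays. The members' median was 0.33, against -0.14 over all genes, and 77 of 80 were above 0. On 10 members all G-CSF arrays were higher than all CWHM-823+tGro-b arrays, against 6.46% of all genes, and on 1 all were lower, against 6.78%. Of 6 measured B cell markers 3 fell, among them Cd79a (-2.28 ± 0.38, adjusted p = 0.0168), and their part was not tested.

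CWHM-823+tGro-b against AMD3100 had no member past the threshold, and 0.118% of all genes were higher and 0.0295% lower, 0.147% either way. At an unadjusted p under 0.05 there were 28 members, 35% of them, against 19.9% of all genes. With the block 22 members were higher and 1 lower, against 8.45% of all genes each way. The smallest p-values belonged to Sdha (1.45 ± 0.29, adjusted p = 0.0884, 0.0218 with the block), Ndufb6 (1.15 ± 0.26, adjusted p = 0.108, 0.0242 with the block) and Cox6a2 (-1.06 ± 0.25, adjusted p = 0.113, 0.0265 with the block). The members' median was 0.49, against -0.16 over all genes. On 31 members all CWHM-823+tGro-b arrays were higher than all AMD3100 arrays and on 1 all were lower, against 11.2% and 13% of all genes. The comparisons share groups, so the values of Cox6a2 and Sdha in them are not independent of each other.

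The chosen probes of 73 measured members have a position in the mm9 assembly in the scanner files. The probe of Cox6a2 is at chr7:135349160-135349219, that of Sdha at chr13:74460310-74460369, that of Ndufv1 at chr19:4007508-4007567, that of Ndufb6 at chr4:40217720-40217779, that of Uqcrfs1 at chr13:30632363-30632422, that of Uqcrq at chr11:53242451-53242510 and that of Atp5b at chr10:127527255-127527314. No exon annotation of that assembly was used here. Among the 79 members whose accession was matched to a gene, 8 have their probe placed on another chromosome than the gene. Of these, Atp5k, Ndufb11 and Ndufs5 passed in G-CSF against AMD3100, so their values may include signal of another locus, which was not tested. Atp5l was not matched, and its probe is on chrX while its promoter window is on chr9.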

How the data were processed

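RNA of sorted LSK cells was amplified (WTA2), labelled with Cy5 and hybridised to 1-colour Agilent arrays, per the labels' protocols. The arrays were read with Agilent Feature Extraction 11.5.1.1, per the submitters' processing notes. The deposited scanner files hold each spot's processed signal as an intensity, with flags for spots well above background, per the file headers. The authors also deposited a table of normalized intensities, put on the log2 scale here and used only as an alternative. Each sample was put in a group by its own title.

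Control spots were left out, and spots flagged as non-uniform or population outliers were set to missing. The log2 intensity was averaged over the spots of a probe, and the array's 75th percentile was taken off. A further 199 probes that lacked a value on an array were left out. The 4 groups were fitted together in R 4.3.3 with limma's lmFit and eBayes (version 3.58.1) over 23763 genes, with 8 residual and 3.818 prior degrees of freedom, and p-values were Benjamini-Hochberg adjusted over all of them at a threshold of 0.05. The code was tested on simulated data whose arrays varied independently, without the shared deviation of arrays of one replicate number. With the replicate number as a block there were 6 residual and 3.085 prior degrees of freedom. The number pairs the arrays, since each of the 3 slides holds 1 array of every group, with the same number. Deviations from the group means correlated at 0.26 to 0.616 in the 18 pairs of the same number (median 0.441). The median in 36 pairs of different numbers was -0.241, which is no separate evidence, as a group's deviations cancel out by construction.

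The members, lists and markers were chosen with earlier results of these data known. Named members were those past the threshold in any comparison and, in each complex, the 2 with the smallest p-values in the mean of blood against marrow, and other pathway lists gave up to 2 genes by p-value. Quantile, normexp (offset 50) and cyclic loess normalization, other filters and probe rules, an intensity trend and leaving out each array were tried. The labels' protocols also describe treatments that no sample here carries. The values of 1 measured member are not reported here, though it is in the counts and medians.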

Additional observations from a re-analysis of the deposited data

How the results depend on the processing

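With the replicate number as a block, 33 members passed in G-CSF blood against marrow in place of 0, 9 in AMD3100 blood against marrow in place of 3, 74 in G-CSF against AMD3100 in place of 41, and 23 in CWHM-823+tGro-b against AMD3100 in place of 0. With the block and quantile normalization these counts were 20, 15, 70 and 24, and with the block and cyclic loess, chosen after seeing the data, 22, 13, 72 and 21. The block changed the count of no other comparison. Without the block, G-CSF against marrow gave 1 member with normexp, 1 with the mean of a gene's probes, 1 with cyclic loess (also chosen after seeing the data), 2 among genes above background on all 12 arrays and 4 with an intensity trend and robust prior. AMD3100 against marrow gave 1 member with no filter on dim probes, and CWHM-823+tGro-b against AMD3100 gave 1 with quantile normalization. In G-CSF against AMD3100 the other alternatives without the block gave 35 to 49 members. Leaving out 1 array in turn gave 0 to 1 in G-CSF against marrow, 0 to 2 in AMD3100 against marrow, 7 to 49 in G-CSF against AMD3100, 0 to 1 in G-CSF against CWHM-823+tGro-b, and 0 in the other comparisons. Ndufv3 in G-CSF against AMD3100 turned to -0.20 (limma adjusted p = 0.473) with the mean of its probes, as its other probes lie below 0. The cause of the other shifts was not tested. With 3 arrays per group, single arrays decide many calls, and dim probes such as Atp5s have only a bound.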
